A study of Mus musculus with 6 samples.

Results

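The p53 pathway and the machinery of apoptosis were examined in testes of mice at postnatal day 14 by poly(A) RNA sequencing. The set held 34 genes, chosen by symbol from the 50763 genes of the deposited count table: 21 genes of the p53 family, its regulators and its targets, and 13 genes of the BCL2 family and the caspase cascade. All 34 were found in the table. The study compared 3 samples of genotype wild type (WT) with 3 samples of genotype sKO, in which, per the series title, Rif1 was conditionally knocked out in germ cells before meiosis; no label names the Cre driver, the exons removed or the litters. RIF1 is a partner of 53BP1 at broken DNA and a regulator of replication timing. Whether each sample came from its own animal is not in the labels; p-values here measure only how these samples scatter, which may be technical variation.

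The transcription factor p53 is held at a low level by the ubiquitin ligase MDM2 and its partner MDM4. When DNA damage kinases such as ATM, ATR and CHK2 release it, p53 switches on genes that stop the cell cycle, repair DNA or kill the cell. The intrinsic death pathway is set by the BCL2 family: BH3-only proteins free the pore formers BAX and BAK1 from pro-survival members, cytochrome c then leaves mitochondria, and APAF1 with caspase 9 starts the caspase cascade. In the juvenile mouse testis many germ cells die through BAX during the first wave of spermatogenesis, and spermatocytes with unrepaired breaks can be removed through CHK2, p53 and the related protein p63.

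Because p53 acts through a known DNA sequence, the promoters of the 34 genes were searched for it. RefSeq windows (GRCm38.p6) covering 250 bases before to 50 bases after a transcript start were matched by symbol and held 40 windows for 28 of the genes; Perp, Pmaip1, Tnfrsf10b, Trp53inp1, Trp63 and Zmat3 had no entry. A match was a pair of half-sites of the p53 response element, each of 10 bases with the core CNNG, at most 13 bases apart and with at most 2 mismatches to the consensus in the pair. The half-site reads alike on both strands, and no other motif was searched. Such a pair lay in 5 of the 40 windows (12.5%), against 1342 of 32851 RefSeq windows of the same length (4.09%). The limits of the search were set after its matches were seen, and the genes were chosen with earlier results known. These shares are thus a description and no test of an excess. The pairs in the 5 windows are shown with 30 flanking bases because they are the stretches that match the p53 consensus. Capitals mark the half-sites, and the strand given is that of the gene.
Cdkn1a (GRCm38.p6 chr17:29090876-29090967, plus strand, 0 mismatches, 12 bases apart): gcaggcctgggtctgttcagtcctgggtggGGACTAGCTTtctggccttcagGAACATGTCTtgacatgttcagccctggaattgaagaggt
Ccng1 (GRCm38.p6 chr11:40755432-40755511, minus strand, 1 mismatch, 0 bases apart): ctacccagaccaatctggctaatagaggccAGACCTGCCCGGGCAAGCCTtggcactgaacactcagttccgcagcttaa
Bax (GRCm38.p6 chr7:45467049-45467129, minus strand, 2 mismatches, 1 base apart): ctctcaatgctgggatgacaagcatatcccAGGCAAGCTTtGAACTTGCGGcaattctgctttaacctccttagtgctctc
Sesn1 (GRCm38.p6 chr10:41887223-41887305, plus strand, 2 mismatches, 3 bases apart): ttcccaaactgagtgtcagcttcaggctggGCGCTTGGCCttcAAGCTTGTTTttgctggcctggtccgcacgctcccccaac
Trp73 (GRCm38.p6 chr4:154097190-154097269, minus strand, 2 mismatches, 0 bases apart): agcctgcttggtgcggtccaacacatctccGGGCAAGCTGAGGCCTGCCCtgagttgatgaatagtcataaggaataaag
For Cdkn1a, Sesn1 and Trp73 the pair lay in 1 of 2 windows of the gene. Where a window held more than 1 pair, the pair with the fewest mismatches was marked. In the Cdkn1a stretch the 10 bases right after the second marked half-site also form a match with it, 0 bases apart and with 1 mismatch. A match is a description of letters and not a shown binding site, and windows without one say nothing about p53 at those genes. The counts were made on mm39, so these coordinates were not set against them.

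In the whole table edgeR's quasi-likelihood test gave 240 lower and 6 higher genes in sKO of 18860 tested, at a Benjamini-Hochberg adjusted p under 0.05 (called). Total counts per library were 15941672 to 18296594. Rif1 itself averaged 103 ± 23.3 CPM (counts relative to the TMM-scaled library size) over WT and 45.8 ± 3.62 CPM over sKO samples (SD, n = 3 each). Transcripts of 14 pachytene spermatocyte markers summed to 783 to 1640 CPM in WT and 317 to 529 CPM in sKO, with lower estimates for 13 of 13 tested markers and Pgk2 under 1 CPM in all 6 libraries. Those of 10 Sertoli cell markers summed to 5025 to 5879 CPM in WT and 6154 to 7440 CPM in sKO, with higher estimates for 10 of 10. sKO library 1 held 229 CPM of 8 epididymis markers against 2.03 to 27.1 CPM elsewhere. WT library 1 held the most pachytene transcripts of all 6. These are whole testes, in which fewer cells of a type and less RNA per cell cannot be told apart, and the part of cell composition in the values given next was not tested.

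None of the p53 and apoptosis genes was called in either direction. Of the 33 that passed the low-count filter, edgeR called 0, against 1.3% of all genes tested (1.27% lower and 0.0318% higher), and so did DESeq2 and limma-voom. Without adjustment, p lay under 0.05 for 3 genes with higher and 0 with lower values (9.09%), against 13.6% of all genes (5.06% higher and 8.54% lower). In 6 of the 33 (18.2%) the 3 sKO libraries did not overlap the 3 WT libraries, against 20.2% of all genes (10.7% lower and 9.58% higher). The share over both directions was thus near the background. In all 6 the sKO libraries were the higher ones: Trp53, Ccng1, Eda2r, Fas, Bid and Casp8. By direction this was 18.2% higher, against 9.58% of all genes, and 0 lower, against 10.7%, a split that was not tested. Gdf15, a stress cytokine of the p53 response, was not tested, since no library held more than 8 of its counts.

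The precision of the estimates bounds the changes that these samples allow. For 29 of the 33 genes (87.9%) the 95% interval of the fold change lay within 2-fold in both directions, against 77.0% of all genes tested. Taken apart, the share was 80% for the p53 family and targets and 100% for the BCL2 family and caspases. For 22 (66.7%) it lay within 1.5-fold, against 52.8% of all genes. Among the 12715 genes whose group means summed to 10 CPM or more, these shares were 95.1% within 2-fold and 77.0% within 1.5-fold. The 33 were not limited in this way and held genes below that level, so their shares are not like for like with these. The 4 genes with wider intervals, Fas, Eda2r, Perp and Trp73, all had means under 4 CPM in both groups. Estimates were above 0 for 24 of the 33 genes and below 0 for 9, and 55.3% of all genes had estimates above 0. The share above 0 was 65% for the p53 family and targets and 84.6% for the BCL2 family and caspases. The median log2 fold change was 0.08 for the p53 family and targets and 0.16 for the BCL2 family and caspases, beside 0.03 for all genes tested.

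**Figure D1:**
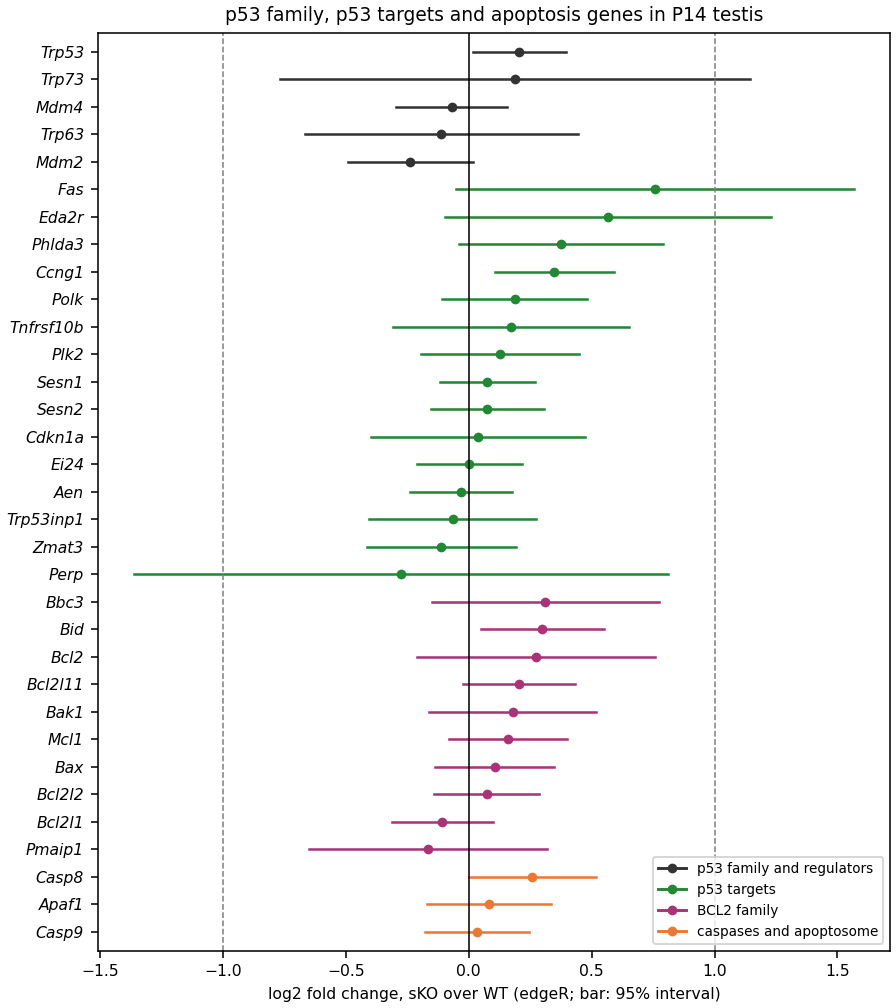
Log2 fold change of sKO over WT for the 33 tested genes (point) with its 95% interval from edgeR (bar), grouped by role; dashed lines mark a 2-fold change in each direction. The bars of Fas, Eda2r, Perp and Trp73 cross a dashed line, and those of the other 29 genes do not.

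Trp53, which encodes p53, was the most precisely estimated gene of the set. The libraries, here and in what follows in the order 1 to 3 of each group, read 93.5, 91.3 and 87.4 CPM across WT and 105, 107 and 102 CPM across sKO. Every sKO library was thus above every WT library, and the spread within a group was small beside the gap. The log2 fold change was 0.21 (SE 0.08, 1.15-fold, edgeR adjusted p = 0.312, unadjusted p = 0.0339). For Trp53 and for the other 5 genes without overlap an exact permutation test, two-sided, returned p = 0.1, the smallest that 3 against 3 libraries allow. Lack of overlap, by which the genes were singled out, fixes this p, so it is no further evidence. The p53 protein is controlled mainly through its stability, which RNA counts do not measure.

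The 2 relatives of p53 were scarce. Trp63, whose product guards the germ line, had 50 to 84 counts per library and a log2 fold change of -0.11 (SE 0.25). Trp73 had 7 to 16 counts per library and a log2 fold change of 0.19 (SE 0.43), so that a 2-fold rise was still inside its 95% interval of -0.77 to 1.15. Counts per gene symbol do not separate the long and short isoforms of these genes, which differ in activity.

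The negative regulators of p53 had slightly lower estimates. Mdm2, the ubiquitin ligase that is itself a p53 target, read 134, 108 and 118 CPM across WT and 94.6, 94.4 and 116 CPM across sKO. The groups overlapped through sKO library 3, which lay between the WT libraries, while sKO libraries 1 and 2 were below all of them. The log2 fold change of Mdm2 was -0.24 (SE 0.12, edgeR adjusted p = 0.410); it was -0.15 without WT library 1 and -0.38 without sKO library 3 (edgeR adjusted p = 0.103, in a range of 0.103 to 0.910 over all settings). Mdm4, the MDM2 partner, averaged 252 ± 22.3 CPM over WT and 240.2 ± 21.4 CPM over sKO samples (SD, n = 3 each), with a log2 fold change of -0.07.

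Among p53 targets that act on the cell cycle, Ccng1, encoding cyclin G1, had the smallest p of all 33 genes. It read 51.7, 42.4 and 52.5 CPM across WT and 62.7, 59.8 and 64.1 CPM across sKO. All sKO libraries were above all WT libraries, and WT library 2 was the lowest of the 6. Its log2 fold change was 0.35 (SE 0.11, 1.27-fold, edgeR adjusted p = 0.169), and over 12 other settings the adjusted p lay between 0.110 and 0.455. The estimate was 0.26 without WT library 2.

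Cdkn1a, which encodes the cell cycle inhibitor p21 and is the textbook readout of p53 activity, did not separate the groups. It read 8.86, 12.3 and 10.01 CPM across WT and 13.2, 9.69 and 9.13 CPM across sKO. The highest sKO value came from library 1, which held the most epididymal transcripts, and the other 2 sKO libraries lay within the WT range. Whether the Cdkn1a level was linked to those transcripts was not tested. The log2 fold change was 0.04 (SE 0.20, edgeR adjusted p = 0.953), with a 95% interval from -0.40 to 0.47, and it was -0.16 without sKO library 1 and -0.07 without WT library 1. Plk2, a kinase of the damage response, had a log2 fold change of 0.13, Zmat3, an RNA-binding p53 target, one of -0.11, and Polk, a translesion DNA polymerase, one of 0.19. The sestrins Sesn1 and Sesn2, which restrain mTORC1 under stress, were among the abundant targets, at 105 ± 5.02 and 132 ± 17.5 CPM in WT and 111 ± 4.71 and 139 ± 1.76 CPM in sKO (SD, n = 3 each), and both had a log2 fold change of 0.08 (SE 0.09 and 0.10).

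Of the 3 receptor genes among the p53 targets, Fas and Eda2r had the largest estimates of the 33 genes and few counts. Fas, the receptor for FAS ligand, read 1.35, 0.648 and 1.74 CPM across WT and 2.52, 1.88 and 1.92 CPM across sKO. The groups did not overlap, but the counts were few, with 11 to 28 in a WT library and 31 to 42 in an sKO library. Its log2 fold change was 0.76 (SE 0.37, 1.69-fold, edgeR adjusted p = 0.404), and it was 0.45 without WT library 2 and 1.07 without WT library 3. Eda2r, a receptor of the ectodysplasin pathway, read 2.41, 1.41 and 2.74 CPM across WT and 4.08, 2.85 and 2.80 CPM across sKO. The lowest sKO library was only just above the highest WT library. Eda2r had a log2 fold change of 0.57 (SE 0.30, edgeR adjusted p = 0.455), which was 0.33 without WT library 2 and 0.35 without sKO library 1. Tnfrsf10b, the mouse TRAIL receptor, averaged 8.61 ± 2.18 CPM over WT and 9.71 ± 1.56 CPM over sKO samples (SD, n = 3 each), and the groups overlapped.

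The remaining p53 targets lay on both sides of 0. Phlda3, an inhibitor of AKT signalling, had a log2 fold change of 0.38 (SE 0.19, edgeR adjusted p = 0.422), and 0.19 without WT library 1; sKO library 3, at 19.5 CPM, lay inside the WT range of 13.01 to 21.3 CPM. Aen, a nuclease of apoptotic cells, Ei24, a membrane protein induced by p53, and Trp53inp1, a cofactor of p53, had log2 fold changes of -0.03, 0.0023 and -0.07. Perp, a p53 target that is also a desmosome protein of epithelia, had an estimate that moved with each sKO library. It read 2.58, 3.30 and 2.43 CPM across WT and 4.51, 1.33 and 1.05 CPM across sKO. sKO library 1 was the highest of the 6 and the other 2 sKO libraries were the lowest. The log2 fold change of Perp was -0.28 with all libraries and -1.24 without sKO library 1 (edgeR adjusted p = 0.170, the smallest of all settings, the largest being 0.9996). It was 0.04 without sKO library 3. Library 1 of sKO also held the 229 CPM of epididymis markers; whether the 2 are linked was not tested.

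**Figure D2:**
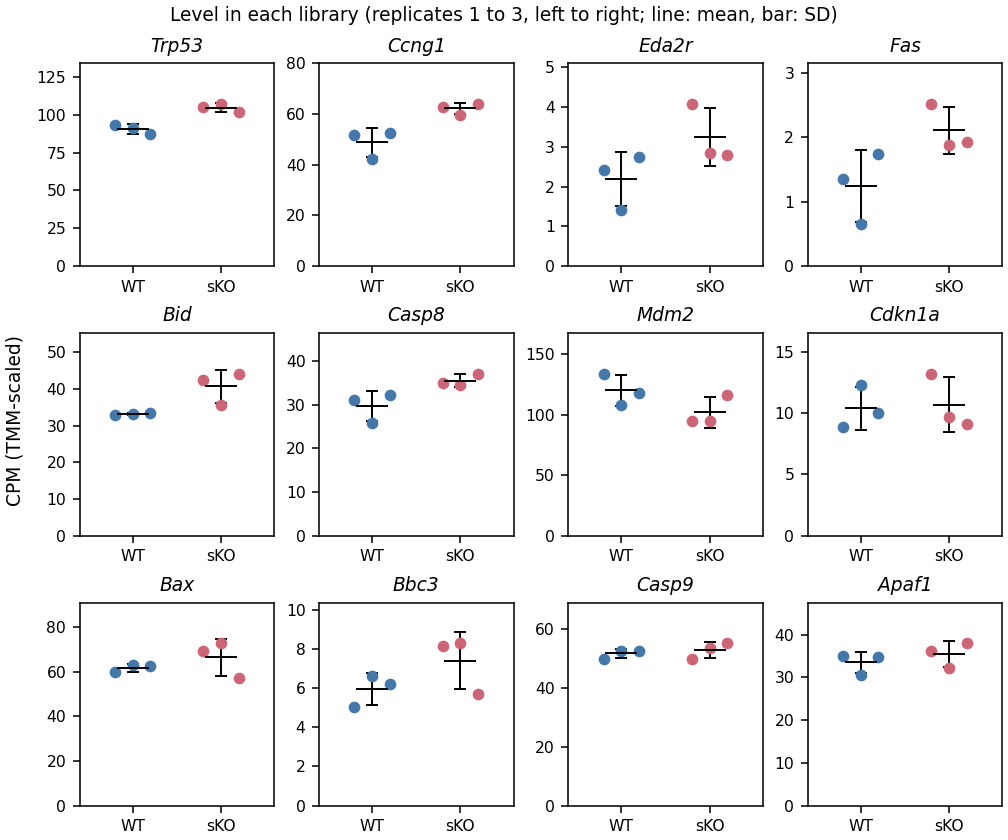
Level of 12 genes in each library (TMM-scaled CPM, axis from 0; points are replicates 1 to 3 from left to right, line and bar are the mean and SD of 3 libraries). For Trp53, Ccng1, Eda2r, Fas, Bid and Casp8 the sKO points lie above the WT points, and for the other 6 genes the groups overlap.

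In the BCL2 family the groups overlapped for both pore formers. Bax read 59.8, 62.9 and 62.4 CPM across WT and 69.3, 72.7 and 57.1 CPM across sKO. sKO libraries 1 and 2 were above the WT libraries and sKO library 3 was below them. Bax had a log2 fold change of 0.105 (SE 0.11, edgeR adjusted p = 0.724), with a 95% interval from -0.14 to 0.35. Bak1 had a log2 fold change of 0.18 (SE 0.15), and 25.5% of its annotated exon length (GENCODE vM21) is shared with Ggnbp1, a germ cell gene, so part of its counts may belong there.

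The BH3-only activators gave the only separation in this family. Bid, which caspase 8 cleaves to link death receptors to mitochondria, read 32.9, 33.1 and 33.4 CPM across WT and 42.4, 35.6 and 44.3 CPM across sKO. The WT libraries were nearly equal and all sKO libraries were above them, with sKO library 2 closest. Its log2 fold change was 0.30 (SE 0.11, 1.23-fold, edgeR adjusted p = 0.261, unadjusted p = 0.0235); 17.7% of its exon length is shared with Bcl2l13. Bbc3, which encodes the p53-induced killer PUMA, read 5.05, 6.60 and 6.22 CPM across WT and 8.17, 8.30 and 5.72 CPM across sKO. sKO library 3 fell inside the WT range, as it did for Phlda3. Bbc3 had a log2 fold change of 0.31 (SE 0.21, edgeR adjusted p = 0.556), and 0.20 without WT library 1. Pmaip1, encoding NOXA, had a log2 fold change of -0.17 (SE 0.22), and Bcl2l11, encoding BIM, one of 0.21 (SE 0.10, edgeR adjusted p = 0.424).

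The abundant pro-survival members had narrow intervals. Mcl1, averaging 187 ± 18.1 CPM over WT and 209 ± 23.0 CPM over sKO samples (SD, n = 3 each), had a log2 fold change of 0.16 (SE 0.11). Bcl2l2, encoding BCL-W, a pro-survival protein that spermatogenesis needs, was at 148 ± 5.27 and 156 ± 15.2 CPM (SD, n = 3 each), with a log2 fold change of 0.07 (SE 0.10). Bcl2l1, encoding BCL-XL, was at 105 ± 9.05 and 97.4 ± 1.99 CPM (SD, n = 3 each), with a log2 fold change of -0.11 (SE 0.09). The 95% intervals of these 3 genes lay between -0.31 and 0.40 on the log2 scale. Bcl2 itself was low, at 6.85 ± 1.41 and 8.29 ± 1.77 CPM (SD, n = 3 each), and its log2 fold change was 0.27 (SE 0.22), and 0.10 without sKO library 2.

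Of the caspase genes, Casp8, the initiator caspase of death receptors, read 31.1, 25.9 and 32.1 CPM across WT and 34.8, 34.6 and 37.1 CPM across sKO. All sKO libraries were above all WT libraries, and WT library 2 was again the lowest, as for Ccng1 and Fas. Casp8 had a log2 fold change of 0.26 (SE 0.12, 1.20-fold, edgeR adjusted p = 0.370), and 0.17 without WT library 2. Casp9, the initiator caspase of the mitochondrial pathway, read 49.8, 52.6 and 52.6 CPM across WT and 49.9, 53.7 and 55.1 CPM across sKO. Apaf1, its activating scaffold, read 35.1, 30.6 and 34.8 CPM across WT and 36.2, 32.1 and 38.0 CPM across sKO. For both genes the groups overlapped, and the log2 fold changes were 0.03 (SE 0.10) for Casp9 and 0.08 (SE 0.11) for Apaf1. Caspases act by cleavage, which RNA levels do not show.

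Among themselves the genes spanned a wide range of abundance. Per kilobase of annotated exon (GENCODE vM21, GRCm38), Mcl1 was the most abundant of the 34, with a WT level of 54.7 CPM per kb, followed by Bax with 39.1, Sesn2 with 37.9 and Bcl2l2 with 33.3 CPM per kb. Trp53 stood at 22.4 and Mdm2 at 23.6 CPM per kb. The lowest were Trp73 with 0.115, Gdf15 with 0.146, Eda2r with 0.371 and Trp63 with 0.470 CPM per kb. The pro-survival genes thus differed greatly in level, with Bcl2 at 0.748 CPM per kb and Bcl2l1 at 22.9 CPM per kb. The p53 targets Cdkn1a and Bbc3 were low, with WT levels of 2.93 and 2.80 CPM per kb. These levels rest on the full annotated exon length, which understates genes with long, rarely used exons. Of that length, 12.2% is shared with Gm45808 for Bax and 13.3% with Gm20521 for Bcl2l2, so part of their counts may belong there.

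**Figure D3:**
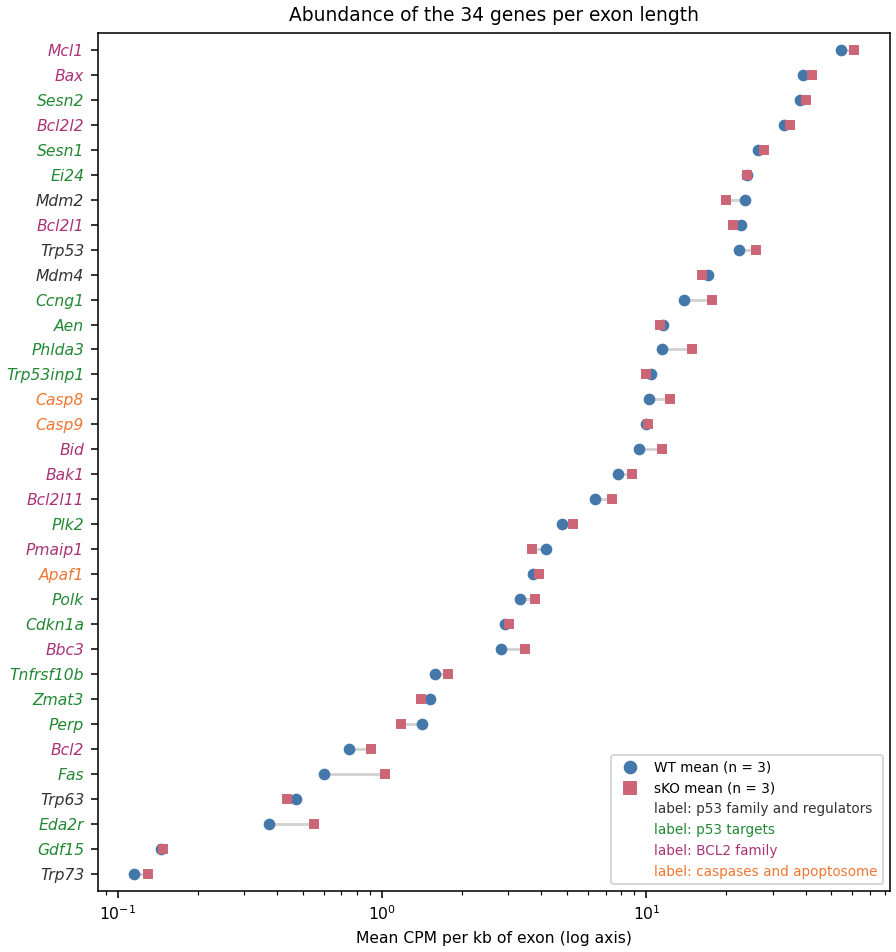
Mean level of the 34 genes per kilobase of exon (log axis) in WT (circles) and sKO (squares), ordered by the WT level, with gene names coloured by role. WT levels run from 0.115 for Trp73 to 54.7 CPM per kb for Mcl1.

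The 5 genes with a pair of p53 half-sites in a promoter window all had estimates above 0, as did 72.7% of the 33 tested genes and 55.3% of all genes, and edgeR called none of them. Their log2 fold changes were 0.04 for Cdkn1a, 0.35 for Ccng1, 0.105 for Bax, 0.08 for Sesn1 and 0.19 for Trp73. Those of Cdkn1a and Trp73 were below 0 without sKO library 1 (-0.16 and -0.08) and without WT library 1 (both -0.07). Ccng1 was the only 1 of the 5 whose groups did not overlap, against 20.2% of all genes.

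Other genes of the pathway were taken from lists outside the 34. Of 30 further p53 targets, all tested, edgeR called 1 higher and 0 lower, against 0.0318% higher and 1.27% lower of all genes. Without adjustment, p lay under 0.05 for 3 higher and 0 lower genes (10%), against 13.6% of all genes (5.06% higher and 8.54% lower). The median log2 fold change was 0.16. The gene called was Btg2, an antiproliferative p53 target, which read 35.0, 35.3 and 35.7 CPM across WT and 49.01, 57.3 and 51.2 CPM across sKO. Every sKO library was well above the nearly equal WT libraries. Btg2 rose by 0.57 on the log2 scale (SE 0.10, 1.49-fold, edgeR adjusted p = 0.0314), an estimate that stayed between 0.51 and 0.60 in 12 other settings. Its call was lost with limma-voom (adjusted p = 0.0589) and in edgeR without WT library 1 (adjusted p = 0.0584), WT library 2 (0.142), sKO library 1 (0.103), sKO library 2 (0.184) or both libraries numbered 1 (0.0659), and with the replicate block (0.123). Tap1, an antigen peptide transporter, and Slc19a2, a thiamine transporter, had estimates of 0.55 and 0.24 on the log2 scale (edgeR adjusted p = 0.347 and 0.358), and of 0.31 and 0.16 without sKO library 3.

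The kinases and modifiers that act on p53 gave 0 calls of 12 in edgeR, against 1.3% of all genes, with a median log2 fold change of -0.01. Without adjustment, p lay under 0.05 for 1 lower gene and 0 higher genes (8.33%, against 13.6% of all genes), and DESeq2 called that gene, Atr. Atr, the kinase of stalled forks and of unsynapsed meiotic chromosomes, read 365, 274 and 289 CPM across WT and 201, 187 and 260.3 CPM across sKO. The groups did not overlap, WT library 1 was the highest and sKO library 3 was the closest to WT. Atr had a log2 fold change of -0.52 (SE 0.14, edgeR adjusted p = 0.123), with an adjusted p of 0.0173 in DESeq2, 0.130 in limma-voom and 1.32e-04 (without the low-count filter) to 0.529 over all settings; without WT library 1 the estimate was -0.38. The next genes by p were Hipk2, a kinase of p53, and Kat5, an acetyltransferase, with log2 fold changes of 0.17 (0.09 without sKO library 3) and -0.14.

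In the wider apoptosis machinery, 31 of 34 genes were tested and 0 were called by edgeR, against 1.3% of all genes. Without adjustment, p lay under 0.05 for 2 higher genes and 1 lower gene (9.68%, against 13.6% of all genes), and the median log2 fold change was 0.14. The smallest p belonged to Hrk, which encodes the BH3-only protein Harakiri. Hrk read 4.09, 7.01 and 7.84 CPM across WT and 15.4, 22.0 and 11.3 CPM across sKO. Every sKO library was above every WT library, with sKO library 3 the closest. The log2 fold change was 1.37 (SE 0.29, 2.58-fold, edgeR adjusted p = 0.0512), resting on 73 to 126 counts in a WT library and 206 to 363 in an sKO library. DESeq2 called Hrk (adjusted p = 1.18e-04) and limma-voom did not (adjusted p = 0.0760), and over 12 other settings its estimate lay between 1.09 and 1.55 and its adjusted p between 1.18e-09, without the low-count filter, and 0.227.

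Diablo, whose product SMAC lifts the block on caspases, had a lower estimate in sKO. It read 284, 234 and 196 CPM across WT and 151, 157 and 172 CPM across sKO. The groups did not overlap, and the WT libraries were ordered as their pachytene transcripts were, with library 1 highest and library 3 lowest. Whether the Diablo level was linked to those transcripts was not tested. Diablo had a log2 fold change of -0.58 (SE 0.13, edgeR adjusted p = 0.0571), with an adjusted p of 0.00182 in DESeq2, 0.0844 in limma-voom and 9.35e-06 (without the low-count filter) to 0.271 over all settings; without WT library 1 the estimate was -0.43. Its exons share 40.9% of their length with other annotated genes, among them B3gnt4, so its count is uncertain. Casp6, an effector caspase, had a log2 fold change of 0.26 (edgeR adjusted p = 0.352), and 0.16 without sKO library 1. Fasl, Bcl2l10 and Bcl2l14 were too low to be tested, with at most 10 counts in a library.

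**Figure D4:**
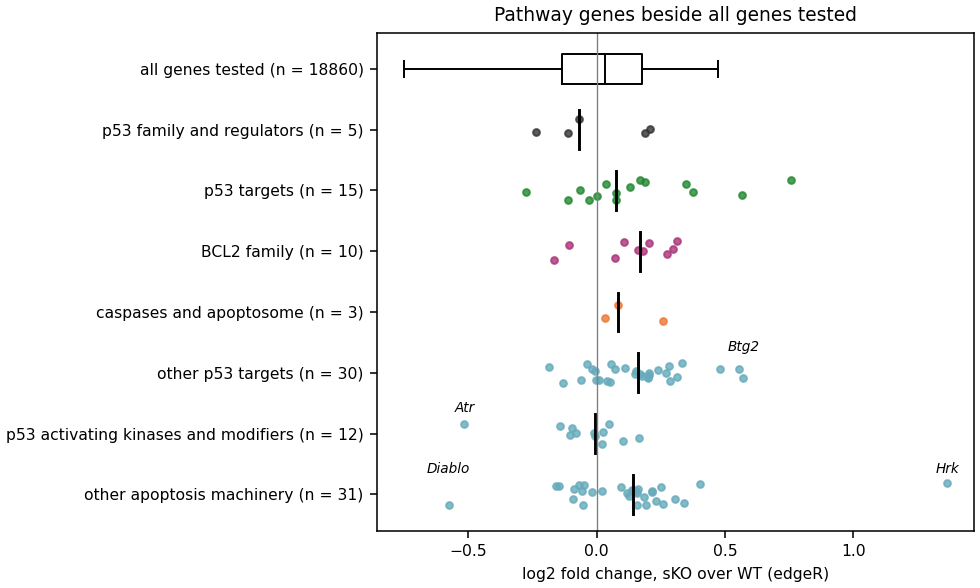
Log2 fold change of sKO over WT for the genes of each list (points, black line at the median) beside all 18860 genes tested (box with quartiles, whiskers at the 5th and 95th percentiles). List medians run from -0.07 to 0.17, and Hrk, Diablo, Btg2 and Atr lie at the ends of their lists.

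**Figure D5:**
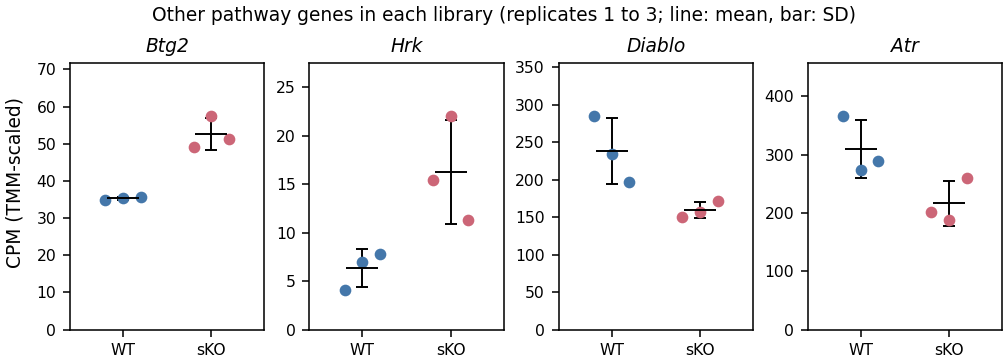
Level of Btg2, Hrk, Diablo and Atr in each library (TMM-scaled CPM, axis from 0; points are replicates 1 to 3 from left to right, line and bar are the mean and SD of 3 libraries). Groups do not overlap for any of the 4 genes, which were among those with the smallest p of their lists. In the whole lists, groups did not overlap for 20% of the 30 further p53 targets and 16.7% of the 12 kinases and modifiers. The share was 16.1% for the 31 tested genes of the wider apoptosis machinery and 20.2% for all genes. edgeR called Btg2 alone.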

How the data were processed

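Poly(A) RNA of whole testes was sequenced in 3 WT and 3 sKO samples at postnatal day 14. The authors deposited a table of unnormalized read counts, 1 row per gene symbol; per the submitters' processing notes, Trim Galore, HISAT2 and featureCounts were used with build mm39. No source used here gives versions, annotation, strand setting or the treatment of multi-mapping reads, so reads of overlapping genes cannot be told apart. Columns named con and scKO were read as WT and sKO and matched by replicate number. No 2 libraries of a group matched within counting noise: their chi-square statistics were 4.45 to 20.2 times the degrees of freedom.

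Counts were filtered with filterByExpr, scaled with TMM and tested with the robust quasi-likelihood F test of edgeR 4.0.16 in R 4.3.3, adjusted by Benjamini-Hochberg over 18860 genes; SEs and 95% intervals derive from the F statistic. CPM use TMM-scaled library sizes, and 3 counts correspond to 0.165 to 0.187 CPM, a limit that covers counting error alone. Exact permutation tests used log2(CPM + 1). DESeq2 1.42.0, limma-voom (limma 3.58.1) and the other settings of the closing section were alternatives. The scripts were tested on simulated counts. The members and lists were chosen with earlier results of these data known, and the limits of the promoter search after its matches were seen. Members with values in every library were those called or without overlap, plus Trp53, Mdm2, Cdkn1a, Bax, Bbc3, Casp9 and Apaf1; Perp and the untested genes were added after their values were seen. From each other pathway list, called genes and the 3 with the smallest p were named. The value of 1 gene of these lists is not reported here.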

Additional observations from a re-analysis of the deposited data

How the results depend on the processing

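No p53 or apoptosis gene of the 34 was called in any of the 12 other settings, and the smallest adjusted p of any of them was 0.103 (Mdm2, edgeR without sKO library 3). The count of all called genes did depend on the setting: 992 lower and 154 higher without the low-count filter, 721 and 56 with DESeq2, 15 and 0 with limma-voom, 252 and 6 with DESeq2 size factors in edgeR, and 155 and 5 without both libraries numbered 1, a setting added after the data were seen. Leaving out each library in turn gave 0 to 624 lower and 0 to 31 higher genes. The replicate block left 21 lower and 0 higher genes and called 0 of the 34. Between WT and sKO libraries of the same number, deviations from the group means correlated at -0.342, 0.12 and -0.276 for libraries 1 to 3. Of 6 libraries, 1 correlated best with its own number. These values showed no strong pairing by number. With 3 libraries in a group they cannot exclude a smaller effect shared by number. The median log2 fold change of the BCL2 family and caspases was 0.094 without sKO library 1 and 0.0862 without both libraries numbered 1, with 0.094 to 0.15 over all single omissions, and that of the p53 family and targets ranged from 0.01 to 0.09.

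Signs changed for 13 of the 33 tested genes, all with estimates of at most 0.28 in size; the cause was not tested. Over single omissions the log2 fold change ranged from -0.29 to 0.039 for Trp63, -0.084 to 0.35 for Trp73, -0.16 to 0.18 for Cdkn1a, -0.21 to 0.12 for Trp53inp1, -0.071 to 0.027 for Aen, -0.074 to 0.074 for Ei24, -1.24 to 0.040 for Perp, -0.019 to 0.32 for Tnfrsf10b, -0.38 to 0.0069 for Pmaip1, -0.032 to 0.055 for Casp9 and -0.0066 to 0.15 for Apaf1. Without both libraries numbered 1 it was -0.33 for Trp73, -0.26 for Cdkn1a, 0.098 for Trp53inp1, -0.028 for Bak1, 0.055 for Pmaip1 and -0.0071 for Bcl2l2. Ei24 was at -0.014 with DESeq2 and with its size factors in edgeR, and at -0.0039 without the filter.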

Other observations

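The ratio of Mdm2 to Trp53 counts, chosen after the values were seen and therefore given without a test, read 1.43, 1.18 and 1.35 across WT and 0.900, 0.879 and 1.14 across sKO, in the order of the libraries. The groups did not overlap in this ratio, although they overlapped for Mdm2 alone. sKO library 3 lay closest to WT and held the most pachytene transcripts of the sKO group. WT library 3 held the fewest of the WT group, and its ratio lay between those of WT libraries 1 and 2. Whether the ratio was linked to pachytene transcripts was not tested.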
